A study of Hydra vulgaris with 36 samples.

Results

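The 150 genes described here are those whose transcripts were most enriched in the distal part of mock tentacles of the freshwater polyp Hydra vulgaris, out of 22608 genes in the deposited table of read counts. They were chosen from 8 libraries, 4 of mock distal parts and 4 of mock proximal parts, on CPM, the count of a gene divided by the total of its library and scaled to a library of 1 M (mega) counts. A gene had to average at least 10 CPM in mock distal parts, to reach at least 4 times its mean in mock proximal parts, and to have its lowest distal library above its highest proximal library. These conditions were met by 635 genes, of which 1 was set aside by the rule, and the 150 with the largest ratio of distal mean to proximal mean, each raised by 0.5 CPM, were kept.

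A Hydra tentacle is a hollow tube of an outer and an inner epithelial layer. Epithelial cells enter it from the body column at its base, take on tentacle identity there, move outwards and are shed at the tip, so position along the tentacle also follows the time since a cell became a tentacle cell. The outer cells, called battery cells, hold the stinging cells, or nematocytes. Zic4 and Sp5 are zinc finger transcription factors, and Sp5 is known in Hydra as a repressor of the head organizer gene Wnt3.

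All animals were wild type, of strain Hm_105, and RNA interference (RNAi) was done by 3 electroporations with small interfering RNA (siRNA) at 1.35 µM each. The protocol is given alike for mock RNAi; the titles of undivided mock libraries carry gfp and those of divided ones G, with no further word on the mock siRNA. Tentacles of 20 to 30 animals per treatment were collected 7 days after the last electroporation and were pooled, and cDNA was amplified by SmartSeq2. After Zic4 RNAi, original tentacles, those at their normal place, gave distal parts (n = 4) and proximal parts (n = 4). After Sp5 RNAi, animals gave ectopic tentacles (n = 3), distal parts (n = 3) and proximal parts (n = 3) of original tentacles. Mock animals gave distal parts (n = 4) and proximal parts (n = 4). A second set, which was normalized and tested apart, held ectopic tentacles (n = 4) and undivided original tentacles (n = 4) after RNAi against both genes, called Zic4/Sp5 RNAi, and undivided original tentacles of mock animals (n = 3). No label says whether libraries of a group came from separate cultures, so p-values measure the spread between these libraries, which may be technical. In pooled tissue, fewer cells of a type and less RNA per cell cannot be told apart.

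Library totals ran from 2.04 to 13.28 M counts, and 8243 to 14491 genes had at least 10 counts. The 10 most abundant genes took 17.2 to 23.1% of the counts in mock proximal parts and 9.24 to 17.7% in the other groups. Markers of tentacle ectoderm, namely annexin-12, Alx, hywnt5a and hywnt8, summed to between 1588 and 9506 CPM, and each had counts in every group. Neither Zic4 nor Sp5 could be found by name, so the strength of each knockdown is not analysed here.

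Little is known of the 150 genes from their annotation. A RefSeq gene table of another Hydra assembly, used for names and neighbours only, held 94 of them (62.7%), all protein coding. None of the 150 was among 49 genes on 13 lists of Hydra cell type markers and pathways. The gene the rule set aside was hywnt5a, a Wnt ligand known for its expression in forming tentacles, with 346 ± 84.4 CPM in mock distal parts and 71.3 ± 22.8 CPM in mock proximal parts (SD, n = 4 each). It would have stood at position 403. Genes without a match are named below by their identifier.

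The ratio that ranked the genes, which uses the mock libraries and is given as a description only, was 51.4 for the first gene and 7.65 for the last. The first was LOC101234383, with 352, 175, 121 and 60.8 CPM in the 4 mock distal libraries, against 2.22, 1.93, 2.93 and 4.78 CPM in the 4 mock proximal libraries. At the edge of the list, the ratio was 7.68 for identifier 100205814 and 7.65 for LOC101240025, both inside. It was 7.63 for LOC101239069 and 7.61 for LOC101241763, both outside. The list depended on single libraries: without mock proximal replicate 4, 76 of the 150 genes would have been chosen again.

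CPM values are not corrected for transcript length, so levels compare groups for 1 gene and not genes with each other. The gene with the highest counts, identifier 100202388, had 1083, 336, 1987 and 129 CPM in mock distal libraries, against 52.0, 43.5, 68.2 and 65.1 CPM in mock proximal libraries. Its mock distal libraries thus differed by more than 10 times among themselves. For 134 of the 150 genes, mock distal replicate 4 was the lowest of its group. That library had the fewest counts of its group, 2.04 M, and its 10 most abundant genes took 17.7% of them.

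Summed over the 150 genes, the mean level was highest in Sp5 RNAi distal parts and lowest in mock proximal parts. After Zic4 RNAi the genes took 0.589 to 1.70% of all counts in distal parts and 0.505 to 0.930% in proximal parts. After Sp5 RNAi they took 0.364 to 0.457% in ectopic tentacles, 1.35 to 1.50% in distal parts and 0.158 to 0.624% in proximal parts. In mock animals they took 0.296 to 1.40% in distal parts and 0.0533 to 0.0965% in proximal parts. In the set of undivided tentacles the shares were 0.487 to 0.599% in Zic4/Sp5 RNAi ectopic tentacles, 0.583 to 1.20% in Zic4/Sp5 RNAi original tentacles and 0.781 to 0.858% in mock original tentacles. Distal parts of the 3 treatments overlapped, whereas no library of any other group was as low as the mock proximal libraries. The mock parts chose the genes, so their levels are a description only.

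**Figure D1:**
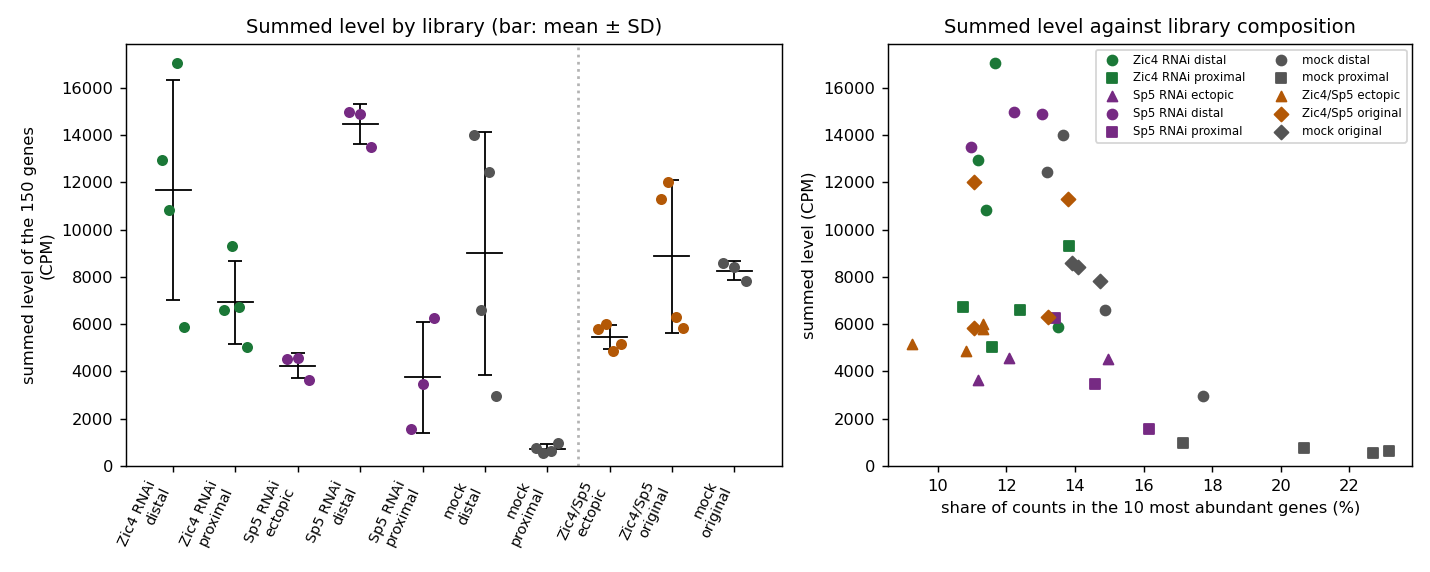
The left panel plots the summed level of the 150 genes in each library, in CPM, with the mean and SD of each group, and a dotted line parts the sets that were normalized apart. The right panel plots the same sum against the share of counts, in percent, taken by the 10 most abundant genes of the library. The mock proximal libraries have the lowest sums, 0.0533 to 0.0965% of counts, and 3 of them have the highest shares of abundant genes.

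Single genes mostly showed the same order. The rule picked them for low mock proximal values, so the place of the mock parts in it is a description only. The mean level was highest in Sp5 RNAi distal parts for 98 genes and in Zic4 RNAi distal parts for 16, and it was lowest in mock proximal parts for 135 and in Sp5 RNAi ectopic tentacles for 14. The median gene averaged 45.1 CPM in Zic4 RNAi distal and 25.4 CPM in Zic4 RNAi proximal parts. It averaged 16.7 CPM in Sp5 RNAi ectopic tentacles, 54.3 CPM in Sp5 RNAi distal and 13.6 CPM in Sp5 RNAi proximal parts. In mock animals it averaged 33.9 CPM in distal and 2.49 CPM in proximal parts. In undivided mock tentacles the median gene averaged 34.1 CPM: 76 genes had a higher mean there than in mock distal parts, 74 lay between the mock parts and 0 lay below the mock proximal mean.

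**Figure D2:**
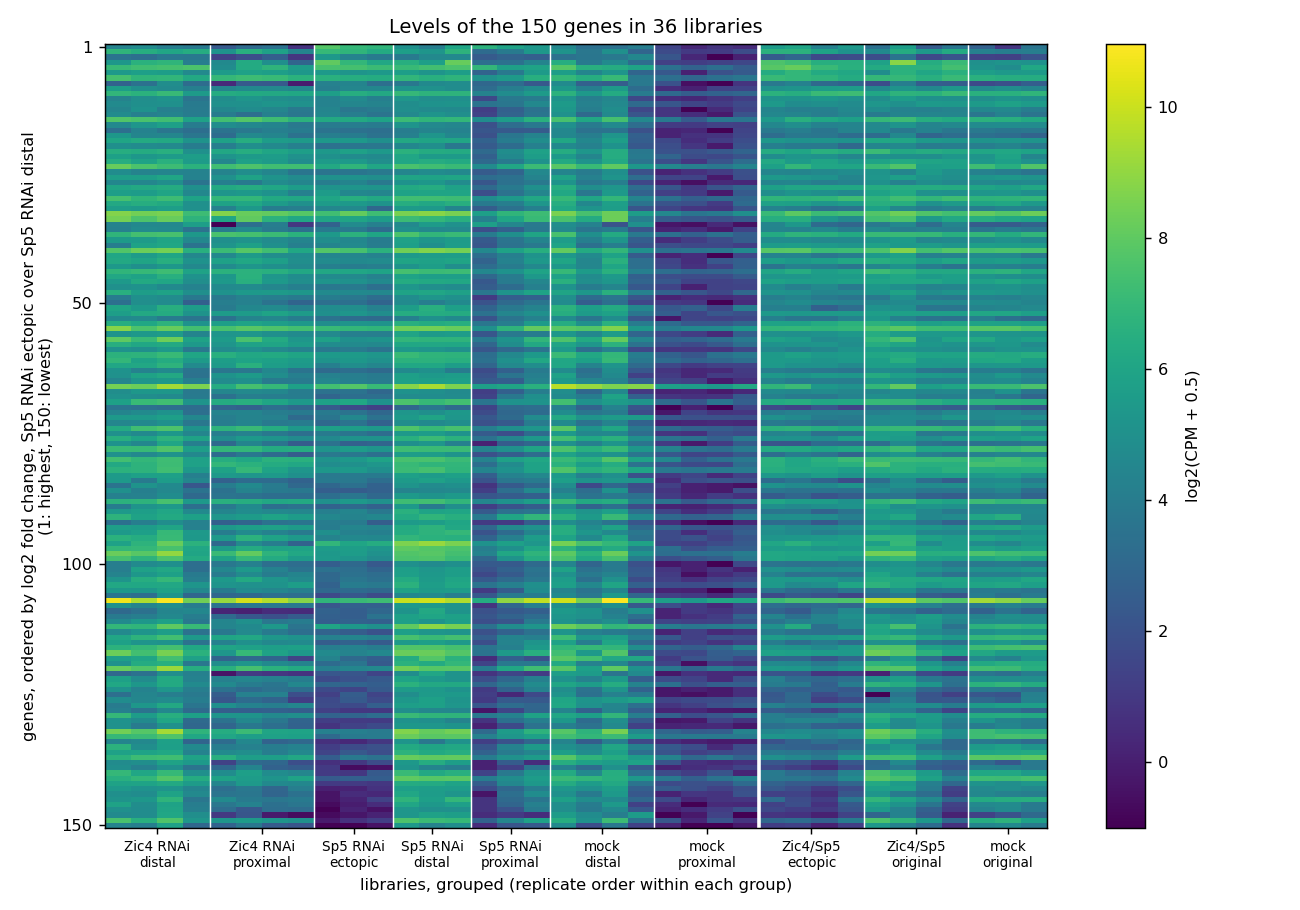
Each row is 1 of the 150 genes and each column 1 of 36 libraries, with colour for log2(CPM + 0.5). Rows run from the highest to the lowest log2 fold change of Sp5 RNAi ectopic tentacles over Sp5 RNAi distal parts. The mock proximal columns are dark in nearly every row, while the ectopic columns are dark in the lowest rows.

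Against the mock parts that chose the genes, values are again a description. In Zic4 RNAi distal parts, 124 genes had a higher mean and 26 a lower mean than in mock distal parts, with a median ratio of 1.33. In Sp5 RNAi distal parts, 140 were higher and 10 lower than in mock distal parts, with a median ratio of 1.78. In proximal parts, 149 genes had a higher mean after Zic4 RNAi than in mock, with a median ratio of 11.1, and all 150 had a higher mean after Sp5 RNAi, with a median ratio of 5.51. The genes were picked for low mock proximal values, and those libraries also had the most counts in their most abundant genes. These CPM values are not scaled by the TMM factors with which edgeR adjusts library totals. Those factors were 0.541 to 0.777 in mock proximal, 1.12 to 1.20 in Zic4 RNAi proximal and 0.753 to 1.05 in Sp5 RNAi proximal parts. Scaled by them, the proximal ratios would be smaller. The part of any of these in the ratios was not tested.

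The first question that other libraries could answer was whether the distal bias was also seen in RNAi tentacles. After Zic4 RNAi, 28 of the 150 genes were higher in distal than in proximal parts and 0 were lower, at an adjusted p under 0.05 in edgeR's quasi-likelihood test with Benjamini-Hochberg adjustment over 14332 genes. Of all genes tested, 3.71% were called higher and 2.04% lower. The median log2 fold change, distal over proximal, was 0.64 for the 150 genes and -0.01 for all genes tested, and 141 of the 150 had a positive one. The mock parts that chose the genes share in the estimate of spread of all tests on divided tentacles. Fitted without these 8 libraries, an alternative added after the data were seen, 42 of the 150 genes were called, all higher, with 9.97% of all genes tested called in either direction. Without Zic4 RNAi distal replicate 3, which was the highest of its group for 101 of the genes, 11 were called. Without Zic4 RNAi proximal replicate 1, 16 were called, without replicate 3 there were 17, and without replicate 4 there were 15.

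The gene with the largest rise was LOC105846314. It had 25.8, 28.1, 66.4 and 29.1 CPM in Zic4 RNAi distal parts, against 1.51, 4.05, 0.403 and 0.145 CPM in Zic4 RNAi proximal parts. The groups did not overlap, as the rule for naming genes required, and the log2 fold change was 4.57 ± 0.66 (SE, edgeR adjusted p = 0.000582). Its neighbour on the chromosome, LOC100198539, is also among the 150, and its log2 fold change was 2.93 ± 0.46 (SE, edgeR adjusted p = 0.00116). The log2 CPM values of these neighbours had a correlation of 0.92 over the 36 libraries, which share depth and group. The only other adjacent pair among the matched genes, LOC101239380 and LOC101235969, had a correlation of 0.61.

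Identifier 105843895 had 8.07, 10.4, 21.1 and 22.9 CPM in Zic4 RNAi distal parts, against 0.661, 0.578, 0.940 and 0.868 CPM in Zic4 RNAi proximal parts. Every proximal library was below 1 CPM, and the log2 fold change was 4.34 ± 0.47 (SE, edgeR adjusted p = 1.29e-05). In contrast, identifier 100213125, among the 10 highest in counts, had 421, 340, 374 and 146 CPM in distal and 431, 287, 273 and 220 CPM in proximal parts after Zic4 RNAi. Its groups overlapped, and its log2 fold change was 0.02 ± 0.37 (SE, edgeR adjusted p = 0.984).

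After Sp5 RNAi, 108 of the 150 genes were higher in distal than in proximal parts and 0 were lower, where 10.6% of all genes tested were called higher and 12.1% lower. The median log2 fold change was 1.75 for the 150 genes and -0.03 for all genes, and 148 of the 150 had a positive one. The proximal libraries of this treatment were unlike each other. Replicate 1 was the lowest of its group for 144 genes and had a TMM scaling factor of 0.753, against 0.988 and 1.05 for the others, and 10 genes took 16.2% of its counts. Without it 48 genes were called, without proximal replicate 2 there were 64, and with the share of the 10 most abundant genes as a covariate, a choice made after the data were seen, also 64.

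LOC105846314 again had the largest rise. It had 38.2, 56.8 and 50.8 CPM in Sp5 RNAi distal parts, against 0.932, 1.55 and 0.989 CPM in Sp5 RNAi proximal parts, and its log2 fold change was 4.99 ± 0.87 (SE, edgeR adjusted p = 0.000602). LOC100213249 had 82.0, 218 and 98.9 CPM in distal and 0.932, 5.83 and 3.30 CPM in proximal parts, and its log2 fold change was 4.98 ± 0.71 (SE, edgeR adjusted p = 0.000187). For both genes all proximal libraries were far below the distal ones, where the rule for naming genes required no overlap. LOC100198539 had 41.3, 84.9 and 49.8 CPM in distal and 0.621, 5.05 and 0.989 CPM in proximal parts, with a log2 fold change of 4.41 ± 0.63 (SE, edgeR adjusted p = 0.000173).

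The comparisons of parts after Zic4 and after Sp5 RNAi share no library. Of the genes called higher in distal parts, 23 were common to both, which is 82.1% of the 28 called after Zic4 RNAi and 21.3% of the 108 called after Sp5 RNAi. Of all 150 genes, 72% were called after Sp5 RNAi and 18.7% after Zic4 RNAi, shares not far from those of the overlap. Across the 150 genes the log2 fold changes had a correlation of 0.53, and across all genes tested 0.51. Genes are not independent replicates, and these values describe the genes only.

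**Figure D3:**
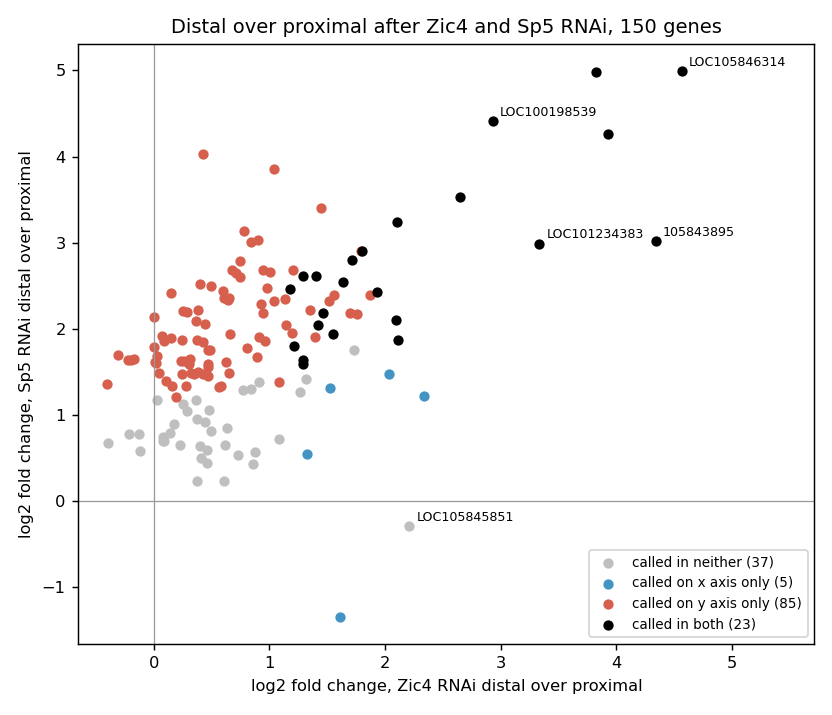
Each point is 1 of the 150 genes, with its log2 fold change of distal over proximal parts after Zic4 RNAi on the x axis and after Sp5 RNAi on the y axis. Colour shows in which comparison edgeR called it. The 23 genes called in both include LOC105846314, LOC100198539 and LOC101234383, and 85 were called after Sp5 RNAi alone.

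Whether the distal bias differed between the treatments was tested as an interaction term, the log2 fold change after Zic4 RNAi minus that after Sp5 RNAi. No gene of the 150 was called by edgeR, where 0.014% of all genes were, and the smallest adjusted p among the 150 was 0.116. The median difference was -1.03 for the 150 genes and 0.04 for all genes, and 134 of the 150 were negative. At an unadjusted p under 0.05, 55 of the 150 were lower (36.7%) and 1 was higher, while 6.73% of all genes were lower. DESeq2 called 5 of the 150, 4 lower and 1 higher. Fitted without the 8 mock libraries, edgeR called 17 of the 150, all lower, where 2.01% of all genes were called in either direction, so the count of 0 depends on those libraries. For 100213125, the difference was -1.58 ± 0.57 (SE, edgeR adjusted p = 0.222).

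The distal parts of these treatments were also compared directly. Between Zic4 RNAi and Sp5 RNAi distal parts, edgeR called 0 of the 150 genes, where 0.314% of all genes tested were called. The median log2 fold change, Zic4 RNAi over Sp5 RNAi, was -0.29 for the 150 genes and 0.005 for all genes tested. At an unadjusted p under 0.05, 15 of the 150 (10%) were lower after Zic4 RNAi and 0 were higher. Of all genes tested, 11.02% were at that p in either direction and 4.96% were lower. The share of the 150 was thus above that of all genes for falls only, and not for both directions together. DESeq2 called 2 of the 150, with no share of all genes given. LOC101234383 had 56.6, 106, 294 and 104 CPM in Zic4 RNAi distal parts, against 387, 559 and 376 CPM in Sp5 RNAi distal parts, without overlap. Its log2 fold change of -1.59 ± 0.48 missed the threshold (SE, edgeR adjusted p = 0.170).

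Ectopic tentacles of Sp5 RNAi animals carried far less of many of these transcripts than the distal parts of their original tentacles. The labels of the ectopic libraries name no part, and the 150 genes were chosen for a distal bias. An ectopic tentacle taken whole would also hold proximal tissue, and the part of this in the falls was not tested. Of the 150 genes, 81 were lower and 1 was higher in ectopic tentacles than in Sp5 RNAi distal parts, where 17.1% of all genes tested were called lower and 18.5% higher. The median log2 fold change was -1.47 for the 150 genes and 0.05 for all genes, and 143 of the 150 were negative. Fitted on these libraries alone, 128 were lower and 1 higher, and the share of all genes is not given for that fit.

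Identifier 105847931 had the largest fall. It had 0, 0 and 2 counts in ectopic tentacles, against 338, 160 and 172 counts in Sp5 RNAi distal parts. The pooled ratio was 321-fold lower, with an exact 95% interval for counting error of 88.4 to 2653, and the fitted log2 fold change of -7.70 ± 1.08 (SE, edgeR adjusted p = 6.33e-06) depends on the prior count. Identifier 101235797 had 0.414, 1.11 and 1.82 CPM in ectopic tentacles, against 196, 144 and 129 CPM in Sp5 RNAi distal parts, a log2 fold change of -6.75 ± 0.86 (SE, edgeR adjusted p = 2.09e-06). LOC105846314 had 0.138, 0.316 and 0.650 CPM in ectopic tentacles, which are 1, 2 and 5 counts, against 38.2, 56.8 and 50.8 CPM in distal parts. The log2 fold change of this gene was -6.60 ± 0.90 (SE, edgeR adjusted p = 4.76e-06).

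Identifier 100202388, highest in counts of the 150, had 114, 136 and 152 CPM in ectopic tentacles, against 986, 1085 and 738 CPM in distal parts. Its log2 fold change was -2.46 ± 0.70 (SE, edgeR adjusted p = 0.00835). Its ectopic libraries lay close together and below every distal library.

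The gene that rose was identifier 100200125, with 214, 123 and 112 CPM in ectopic tentacles, against 31.3, 16.8 and 64.5 CPM in Sp5 RNAi distal parts. Its log2 fold change was 2.36 ± 0.54 (SE, edgeR adjusted p = 0.00135). It was also the gene with the lowest value in the comparison of Sp5 RNAi parts, with a log2 fold change of -1.34 ± 0.53, distal over proximal (SE, edgeR adjusted p = 0.0669). LOC100213053 stayed near its distal level: it had 179, 170 and 143 CPM in ectopic tentacles, against 134, 163 and 188 CPM in distal parts. The groups overlapped, with a log2 fold change of 0.37 ± 0.44 (SE, edgeR adjusted p = 0.549).

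Set against Sp5 RNAi proximal parts, the same ectopic libraries had no common direction. Of the 150 genes, 8 were higher and 20 were lower in ectopic tentacles, where 5.51% of all genes were called higher and 8.89% lower, and the median log2 fold change was 0.22. Fitted without the 8 mock libraries, 23 were higher and 22 lower, where 21.0% of all genes were called in either direction. The calls were few enough for single libraries to matter, with 16 genes called without ectopic replicate 1, 17 without ectopic replicate 2, and 18 without proximal replicate 2 or 3. The falls included genes below the proximal level: identifier 101235797 had 0.414, 1.11 and 1.82 CPM in ectopic tentacles, against 6.21, 21.8 and 56.3 CPM in Sp5 RNAi proximal parts, and its log2 fold change was -4.57 ± 0.82 (SE, edgeR adjusted p = 0.000396). Identifier 105847931, with 2 counts in all ectopic libraries and 27 in the proximal ones, was 32.6-fold lower, with an exact 95% interval for counting error of 8.18 to 282. Identifier 101241810 had 0, 0.632 and 0.260 CPM in ectopic tentacles, against 1.24, 3.50 and 14.2 CPM in proximal parts, and its log2 fold change was -4.35 ± 0.85 (SE, edgeR adjusted p = 0.000787).

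The rises were led by identifier 100198576, with 263, 119 and 70.5 CPM in Sp5 RNAi ectopic tentacles, against 9.94, 10.5 and 20.8 CPM in Sp5 RNAi proximal parts. It had a log2 fold change of 3.45 ± 0.86 (SE, edgeR adjusted p = 0.00822), and it had also been called higher in distal than in proximal parts of this treatment. LOC100202151 had 127, 114 and 78.1 CPM in ectopic tentacles, against 8.70, 14.4 and 40.2 CPM in proximal parts, and its log2 fold change was 2.36 ± 0.52 (SE, edgeR adjusted p = 0.00259). Identifier 100213639 had 41.1, 19.7 and 14.7 CPM in ectopic tentacles, against 4.97, 6.61 and 5.60 CPM in proximal parts. Its log2 fold change was 2.10 ± 0.56 (SE, edgeR adjusted p = 0.0115), with an adjusted p of 0.103 without ectopic replicate 1 and 0.0531 without proximal replicate 3. Over all alternatives its adjusted p ran from 0.00129 to 0.103.

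Transcripts of other cell types also differed in the ectopic tentacles. Some lists that held called genes are not described here. The nematocyte list was drawn up to include proteins of nematoblasts, which are developing nematocytes, so its sum is no count of mature nematocytes. The 8 genes of a nematocyte list, none of which is among the 150, summed to 500 to 6447 CPM in Sp5 RNAi ectopic tentacles, against 39.3 to 44.4 CPM in Sp5 RNAi distal parts and 27.3 to 60.0 CPM in Sp5 RNAi proximal parts. All 8 were called higher than in either part. The 2 genes of a gland cell list summed to 437 to 809 CPM in ectopic tentacles, against 0.122 to 1.31 CPM in distal parts, where 1 of the 2 had no count, and both were called higher. The 4 tentacle ectoderm genes summed to 3045 to 3481 CPM in ectopic tentacles, against 2136 to 2287 CPM in distal parts. Against distal parts, 1 was called higher and 2 lower, with a median log2 fold change of -1.29. In Sp5 RNAi proximal parts these genes summed to 5174 to 9506 CPM. Against proximal parts, 0 were called higher and 1 lower in ectopic tentacles, with a median log2 fold change of -0.72. The part of these differences in the levels of the 150 genes was not tested.

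In undivided original tentacles, Zic4/Sp5 RNAi moved few of the genes at this threshold. Of the 150, 0 were higher and 1 was lower than in mock original tentacles, where 2.36% of all genes tested were called higher and 2.03% lower. Their median log2 fold change was 0.03 for the 150 genes and 0.04 for all genes. The gene that fell, LOC101239463, had 23.3, 30.8, 27.5 and 16.0 CPM in Zic4/Sp5 RNAi tentacles, against 44.9, 53.6 and 53.2 CPM in mock tentacles, a log2 fold change of -1.19 ± 0.23 (SE, edgeR adjusted p = 0.0204). That call was lost with the replicate number as a block (adjusted p = 0.0600) and without any 1 of the mock libraries, and over all alternatives its adjusted p ran from 0.000303 to 0.138.

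The Zic4/Sp5 RNAi libraries of original tentacles were divided. The 150 genes took 1.13 and 1.20% of counts in replicates 1 and 2, but 0.630 and 0.583% in replicates 3 and 4. Identifier 105847931 had 40.1, 19.4, 8.52 and 1.13 CPM in these libraries, against 20.9, 25.1 and 15.2 CPM in mock original tentacles. Thus 1 library was above the mock range, 1 was within it and 2 were below it. With replicate 2 left out, 7 of the 150 genes were called, with replicate 1 left out 4, and with replicate 4 left out 2. DESeq2 called 9, of which 7 were higher.

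In ectopic tentacles after Zic4/Sp5 RNAi, 42 of the 150 genes were lower and 5 higher than in mock original tentacles. Of all genes tested, 15.0% were called lower and 15.0% higher. Their median log2 fold change was -0.54 for the 150 genes and 0.08 for all genes, and 120 of the 150 were negative. With the share of the 10 most abundant genes as a covariate 0 of the 150 were called, and 17 of all genes, and that share was 9.24 to 11.3% in the ectopic tentacles and 13.9 to 14.7% in mock tentacles, without overlap. Without mock replicate 1 or 2, 28 were called. Fitted on these libraries alone, 73 were called, again with no share of all genes given.

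Identifier 105846038 fell furthest, with 8.98, 2.95, 1.75 and 11.9 CPM in Zic4/Sp5 RNAi ectopic tentacles, against 78.5, 85.9 and 91.2 CPM in mock original tentacles. Its log2 fold change was -3.83 ± 0.84 (SE, edgeR adjusted p = 0.00856). Identifier 105847931 had 1.78, 1.97, 0.583 and 1.80 CPM in ectopic tentacles, against 20.9, 25.1 and 15.2 CPM in mock tentacles, a log2 fold change of -3.80 ± 0.88 (SE, edgeR adjusted p = 0.0105). LOC101240025 had 13.9, 13.0, 9.91 and 27.2 CPM in ectopic tentacles, against 153, 145 and 175 CPM in mock tentacles, a log2 fold change of -3.40 ± 0.69 (SE, edgeR adjusted p = 0.00607). No library of the ectopic group reached the mock range for these genes, which the rule for naming genes required.

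Among the genes that rose, LOC100213053 had 232, 289, 136 and 94.7 CPM in Zic4/Sp5 RNAi ectopic tentacles, against 35.2, 27.6 and 68.6 CPM in mock original tentacles. Its log2 fold change was 2.02 ± 0.47 (SE, edgeR adjusted p = 0.0103). LOC100202151 had 101, 101, 58.7 and 33.3 CPM in ectopic tentacles, against 18.8, 16.3 and 16.9 CPM in mock tentacles, a log2 fold change of 2.01 ± 0.48 (SE, edgeR adjusted p = 0.0120). Identifier 100200125 had 47.1, 62.6, 18.3 and 41.4 CPM in ectopic tentacles, against 6.12, 1.36 and 11.6 CPM in mock tentacles. Its log2 fold change of 2.64 ± 0.89 (SE, edgeR adjusted p = 0.0449) passed narrowly, and 10 of 13 alternatives lost the call. Over all 13 alternatives its adjusted p ran from 0.00335 to 0.682.

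After RNAi against both genes, ectopic tentacles were also set against original ones. EdgeR called 0 of the 150 genes, and 0.0% of all genes tested, with the smallest adjusted p among the 150 at 0.0989. Ectopic over original, the median log2 fold change was -0.55 for the 150 genes and 0.03 for all genes tested. At an unadjusted p under 0.05, 66 of the 150 (44%) were lower in ectopic tentacles and 0 were higher. Of all genes tested, 20.5% were at that p in either direction and 12.4% were lower. For the fits that follow, no share of all genes is given. DESeq2 called 40, all lower, and edgeR called 54 without original replicate 4, all lower. That library was the lowest of its group for 83 of the genes. With the replicate number as a block, which these libraries share, 0 were called as well.

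In the undivided set the nematocyte list summed to 608 to 7384 CPM in Zic4/Sp5 RNAi ectopic tentacles and 38.4 to 3200 CPM in Zic4/Sp5 RNAi original tentacles, against 30.1 to 99.3 CPM in mock original tentacles. Of its 8 genes, 5 were called higher in ectopic than in mock tentacles and 0 lower. The gland cell list summed to 171 to 680 CPM in ectopic tentacles and 1.91 to 813 CPM in Zic4/Sp5 RNAi original tentacles, against 1.84 to 5.80 CPM in mock tentacles, and 2 of its 2 genes were called higher in ectopic than in mock tentacles. The tentacle ectoderm list summed to 1588 to 2534 CPM in ectopic tentacles, against 3040 to 3134 CPM in mock tentacles. In Zic4/Sp5 RNAi original tentacles it summed to 2131 to 2665 CPM, also below the mock range. Of its 4 genes, 3 were called lower in ectopic than in mock tentacles, and 0 in Zic4/Sp5 RNAi original than in mock tentacles. The part of these differences in the levels of the 150 genes was not tested.

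The genes that fell in both kinds of ectopic tentacle overlapped. Sp5 RNAi ectopic tentacles against Sp5 RNAi distal parts, and Zic4/Sp5 RNAi ectopic tentacles against mock original tentacles, share no library. They are not alike, as the first sets ectopic tentacles against distal parts and the second against undivided tentacles. Of the 81 and 42 genes called lower, 39 were common, which is 48.1% of the 81 and 92.9% of the 42. Of all 150 genes, 28% were called lower in the second comparison and 54% in the first. The log2 fold changes had a correlation of 0.85 across the 150 genes and 0.79 across 14092 genes tested in both sets, as a description over genes. By contrast, 61 of the 150 genes were called in neither comparison.

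**Figure D4:**
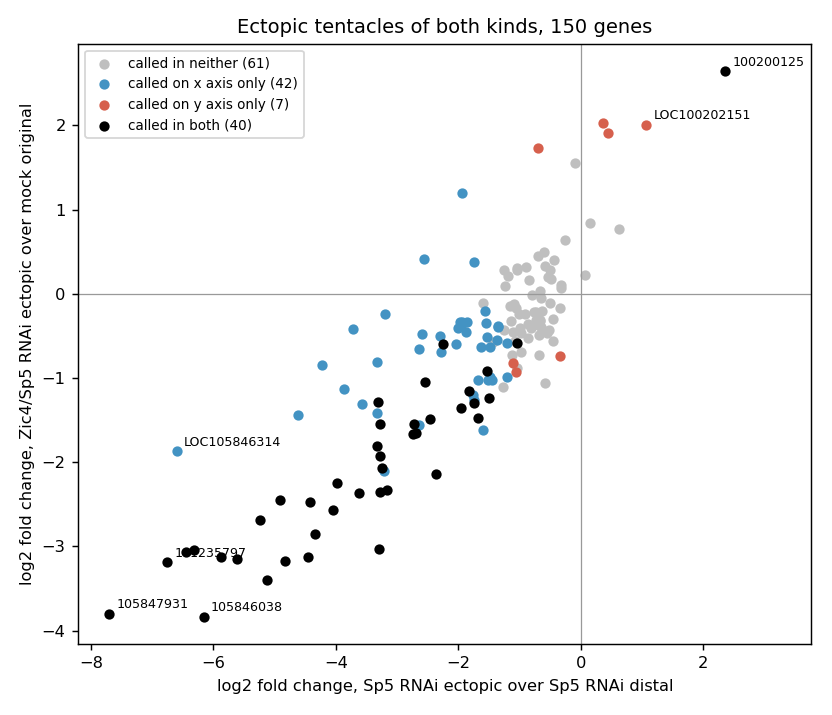
Each point is 1 of the 150 genes, with its log2 fold change of Sp5 RNAi ectopic tentacles over Sp5 RNAi distal parts on the x axis and of Zic4/Sp5 RNAi ectopic tentacles over mock original tentacles on the y axis. Colour shows in which comparison edgeR called it. The 39 genes called lower in both form the lower left arm, and identifier 100200125, higher in both, stands alone at the upper right.

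The genes with a distal bias after Zic4 RNAi were also looked up among the falls in ectopic tentacles, lists of unequal length that hold 54% and 28% of the 150 genes. Of the 28 genes called higher in Zic4 RNAi distal than proximal parts, 23 (82.1%) were among the 81 called lower in Sp5 RNAi ectopic tentacles than in Sp5 RNAi distal parts, which is 28.4% of the 81. Of the same 28, 8 (28.6%) were among the 42 called lower in Zic4/Sp5 RNAi ectopic tentacles than in mock original tentacles, which is 19.0% of the 42 and close to the share of all 150. Neither comparison of ectopic tentacles shares libraries with that of the Zic4 RNAi parts.

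The level of LOC105846314 was 48.6 ± 9.48 CPM in Sp5 RNAi distal parts (n = 3), 37.3 ± 19.4 CPM in Zic4 RNAi distal parts (n = 4) and 34.7 ± 15.0 CPM in mock distal parts (n = 4). Neighbours among these distal groups differed by less than the larger SD of the pair. It was 7.92 ± 8.10 CPM in Zic4/Sp5 RNAi original tentacles (n = 4) and 4.46 ± 3.06 CPM in mock original tentacles (n = 3). Below them stood 1.53 ± 1.78 CPM in Zic4 RNAi proximal parts (n = 4), 1.28 ± 0.60 CPM in Zic4/Sp5 RNAi ectopic tentacles (n = 4) and 1.16 ± 0.34 CPM in Sp5 RNAi proximal parts (n = 3). The lowest were 0.619 ± 0.998 CPM in mock proximal parts (n = 4) and 0.368 ± 0.260 CPM in Sp5 RNAi ectopic tentacles (n = 3). Among these 7 lower groups, neighbours in the order also lay within the larger SD. The order crosses sets normalized apart, and the mock parts chose the gene. Against mock original tentacles, LOC105846314 had a log2 fold change of -1.87 ± 0.89 in Zic4/Sp5 RNAi ectopic tentacles, which missed the threshold (SE, edgeR adjusted p = 0.131).

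**Figure D5:**
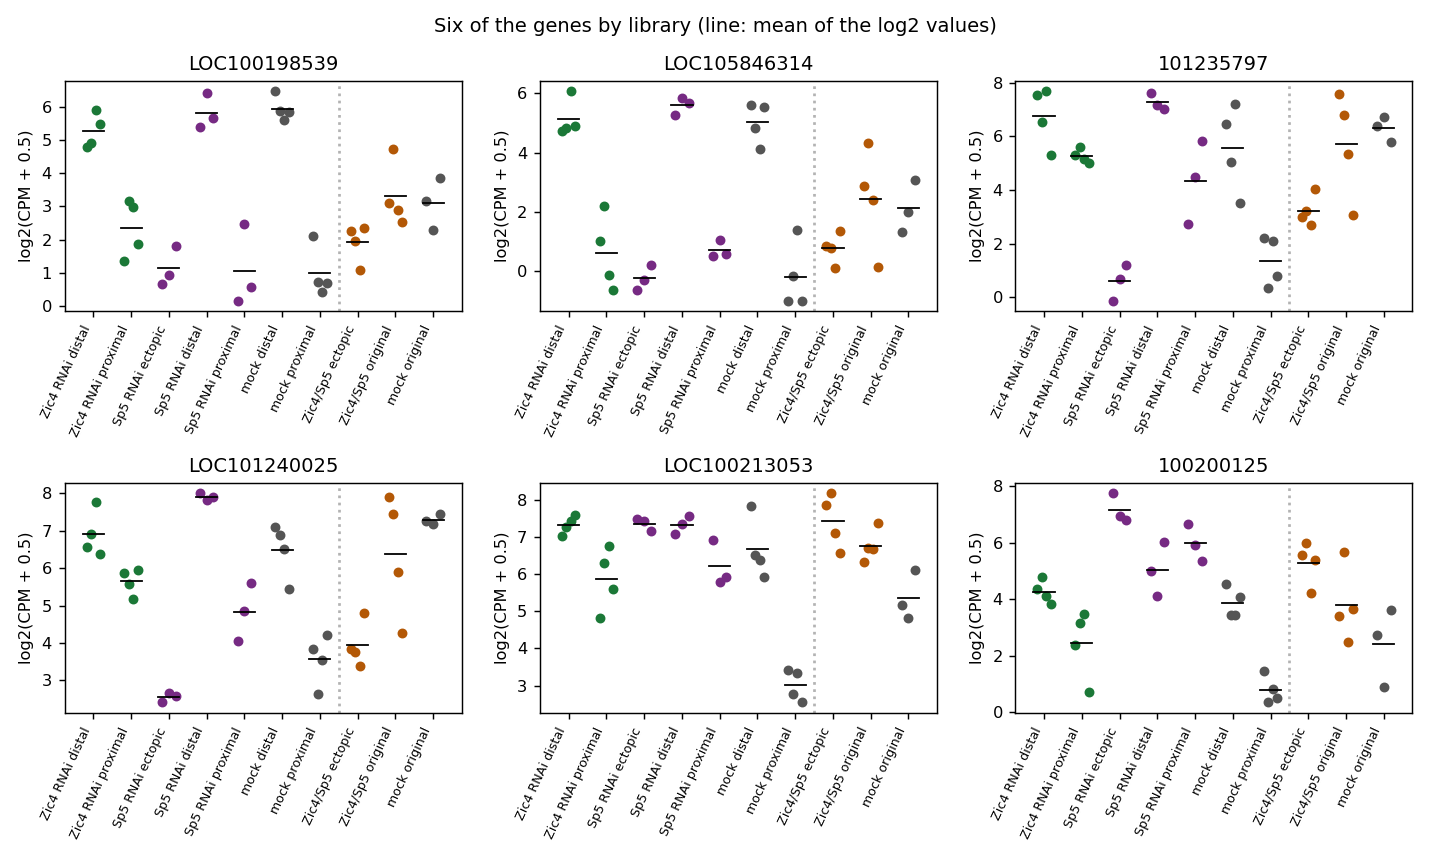
The level of 6 of the 150 genes in each library is plotted as log2(CPM + 0.5), with a line at the mean of these values for each group. A dotted line parts the sets that were normalized apart. The genes LOC100198539, LOC105846314, 101235797 and LOC101240025 are lower in Sp5 RNAi ectopic tentacles than in Sp5 RNAi distal parts in every library, whereas LOC100213053 and 100200125 are not.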

How the data were processed

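The authors deposited raw read counts for each gene, and these counts were used as deposited. Per the submitters' processing notes, bcl2fastq and STAR 2.5.0 were used. The counting program and genome build are not given in the sources used here, nor is the handling of strand or of reads shared by similar genes. The labels mention no molecular identifiers, so intervals cover counting error only. Levels are CPM on column totals, and fold changes come from the TMM-scaled fit.

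Tests used edgeR 4.0.16 under R 4.3.3 (filterByExpr, TMM, robust quasi-likelihood fit, Benjamini-Hochberg adjustment, called under 0.05). The set of 25 divided-tentacle libraries and the set of 11 undivided ones were fitted apart, on 14332 and 14826 genes, with group as the only factor. All 150 genes passed the filter in both sets. SEs come from the F statistic. Alternatives were DESeq2 1.42.0, its size factors, no filter, the compared groups alone, a replicate block, leaving out each library and, added after seeing the data, the share of the 10 most abundant genes as covariate. The script was tested on simulated counts.

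Only the 9 comparisons that contrast none of the 8 libraries of divided mock tentacles were tested. Those libraries still enter the filter, scaling and estimate of spread of the divided set, so a fit without them was added after seeing the data. The members, lists and tests were chosen with earlier results of these data known. Genes named are the 10 highest in mock distal parts, the first 10 by rank, those at the edge, members on a list, and per comparison the 3 largest called rises and falls without overlap between groups. Values of these genes in other comparisons are also given. The result of 1 gene that this rule picks is not reported here. Replicates of a group differed beyond sampling noise in all 48 pairs (chi-square per degree of freedom 9.34 to 161). Replicate numbers paired libraries in 1 comparison, ectopic with original tentacles after Zic4/Sp5 RNAi, where deviations of same-numbered libraries correlated at 0.22 to 0.38 in all 4 pairs.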

Additional observations from a re-analysis of the deposited data

Results flagged for a closer look

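In groups of 4 libraries, 10 of 114 sets of values, over 18 named genes and the sum of the 150, had 1 library farther from the rest than Dixon's 95% limit on the gap over the range. Chance gives about 1 in 20. Zic4 RNAi distal parts held 4 of them. Replicate 3 had 256 CPM of LOC101238602, against 112 to 133 CPM in the others. It also had 161 CPM of LOC100213249, against 52.9 to 63.8 CPM, and 66.4 CPM of LOC105846314, against 25.8 to 29.1 CPM. Replicate 4 had 51.6 CPM of LOC105845851, against 20.0 to 23.8 CPM.

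Zic4 RNAi proximal replicate 2 had 193 CPM of LOC100215577, against 156 to 158 CPM in the others. Mock proximal replicate 4 had 20.0 CPM of LOC100200478, against 5.01 to 7.29 CPM, and 16.2 CPM of LOC100208392, against 9.51 to 10.5 CPM. Mock proximal replicate 1 had 3.80 CPM of LOC100198539, against 0.836 to 1.16 CPM. After Zic4/Sp5 RNAi, ectopic replicate 3 had 3.85 CPM of LOC100213249, against 7.28 to 7.44 CPM, and original replicate 2 had 25.7 CPM of LOC100198539, against 5.27 to 8.17 CPM.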

How the results depend on the processing

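Counts of the 150 genes called moved by over 1.5 times under these alternatives, and the cause was not tested. For most of these fits no share of all genes is given. The counts therefore compare fits, and not the 150 genes with all genes. With DESeq2 in place of edgeR, 5 were called for the difference between treatments in distal bias, 2 between Zic4 RNAi and Sp5 RNAi distal parts, 40 between ectopic and original Zic4/Sp5 RNAi tentacles, and 9 between Zic4/Sp5 RNAi and mock original tentacles, where the balance turned to 7 higher and 2 lower. With the compared groups alone, fewer samples set the spread, and these counts were 5, 1, 0 and 0. The same fit gave 129 for Sp5 RNAi ectopic against distal and 73 for Zic4/Sp5 RNAi ectopic against mock. Without the 8 divided mock libraries, 17 were called for the difference between treatments in distal bias, 1 between the distal parts and 45 for Sp5 RNAi ectopic against proximal, where the balance turned to 23 higher and 22 lower. With the share of abundant genes as covariate, the Sp5 RNAi parts gave 64, and Zic4/Sp5 RNAi original and ectopic tentacles against mock gave 0 and 0. With the replicate block, Zic4/Sp5 RNAi original against mock gave 0, and no other count moved by over 1.5 times.

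With single libraries left out, counts ran from 11 to 29 for Zic4 RNAi parts, 48 to 123 for Sp5 RNAi parts, 0 to 1 for the difference between them (1 without Zic4 RNAi proximal replicate 4), and 0 to 2 between distal parts (2 without Zic4 RNAi replicate 3). They ran from 70 to 81 for Sp5 RNAi ectopic against distal and 16 to 28 against proximal. In the undivided set they ran from 0 to 7 for Zic4/Sp5 RNAi original against mock, 28 to 42 for ectopic against mock and 0 to 54 for ectopic against original. The rule itself shared 109 of 150 genes with TMM-scaled CPM and 76 to 140 with a mock library left out. Of 305 alternative values for 23 results of genes the naming rule picks, 281 kept direction and call, 24 lost the call and 0 turned round.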
